A study of Caenorhabditis elegans with 12 samples.

Results

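The regions described here are 424 places in the genome of the nematode Caenorhabditis elegans where all 3 ETS-5 precipitates of a ChIP-seq series placed a window, and which lie more than 500 and at most 2000 bp outside the nearest protein-coding gene. They make up 23.7% of the 1788 regions that hold a window of all 3 precipitates (shared regions). Of the other shared regions, 633 lay inside a protein-coding gene, 374 within 500 bp outside one, and 357 beyond 2000 bp. The 424 were selected on the deposited windows themselves: any overlap of 1 bp or more joined windows into a region, regions with a window from each list were kept, and the mean of the window centres was measured against the gene spans of the RefSeq assembly WBcel235. Their number, their presence in every list and their distance to genes are therefore a description and carry no test.

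The series has 12 samples in 4 groups of 3, all whole worm extract of animals grown on E. coli OP50, with formaldehyde cross-linking of ground frozen lysates. The ETS-5 precipitates and the ETS-5 inputs come from strain FQ237, which the series title gives as ets-5-gfp, a fusion of ETS-5 to green fluorescent protein. The wild-type precipitates and the wild-type inputs come from strain N2. The labels give the GFP antibody ab290 for the samples, and no age, sex or further allele. Window lists of the 3 ETS-5 precipitates were used, and the other 9 samples were not analysed here, so the windows are given without a value for wild type or input. Separate cultures are not mentioned in the labels, so p-values measure the spread between these samples, which may be technical. Replicates 1, 2 and 3 list 3811, 2915 and 3697 windows, each 400 bp wide, with no read count or score, so the depth behind a window is unknown. The sources used here do not say how FQ237 was built, and in an extract of whole worms the cells that gave a window cannot be told apart.

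ETS-5 belongs to the ETS family of transcription factors, which bind DNA through a conserved domain that recognises a short core of G and A bases. In C. elegans it is best known for its part in specifying the BAG neurons of the head, which sense oxygen and carbon dioxide, and it is also expressed in a few other neurons. In the compact worm genome most regulatory sequence lies close to the start of a gene, and sequence further out can hold enhancers, promoters of neighbouring non-coding genes, or the far end of the next gene. The gene table gives gene ends without strand or exons, so which end of a gene faced a region cannot be told apart here.

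Each of the 424 regions held exactly 3 windows, 1 per list. They were 400 to 821 bp wide, with a median of 449 bp, and their centres lay at a median of 1060 bp from the nearest gene. The lists carry no score, but their lines do not run by position, and the place of a window in its list (its line number) is the only other value it has; the sources used here do not say what the order stands for. The member windows stood at lines 3 to 3790 of replicate 1 with a median of 1032.5, at lines 4 to 2909 of replicate 2 with a median of 1023, and at lines 3 to 3685 of replicate 3 with a median of 1353. Members were thus spread over the whole of each list. As shares of all lines of replicates 1, 2 and 3, these medians were 27.1%, 35.1% and 36.6%.

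The member with the earliest mean place lay beside lin-15A and srg-64, at chrX:15735649-15736078. lin-15A encodes a nuclear protein of the class A synthetic multivulva genes, which restrain vulval fate, and srg-64 encodes a serpentine receptor of the chemoreceptor superfamily. This region was on line 3 of replicate 1, line 4 of replicate 2 and line 3 of replicate 3, a mean place of 0.099% of the lines. The centre of the region lay 502 bp from the nearest gene, just past the lower limit. The member after it had a mean place of 1.26%. The lin-15 locus is a common rescue marker in worm transgenes, and whether FQ237 carries further copies of it was not tested.

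The next 14 members, by the mean of their places, held genes of several kinds. A region beside clec-80, a C-type lectin gene, at chrIV:2828784-2829184, was on lines 9, 84 and 24 of replicates 1, 2 and 3. A region beside lgc-26, a gene of the ligand-gated ion channel family, at chrV:266208-266607, was on lines 63, 25 and 100. A region beside fath-1, a fatty acid hydroxylase gene, at chrI:10175148-10175573, was on lines 20, 23 and 146. These 4 leading regions were early in every list, while many of the following ones were earlier in replicates 1 and 2 than in replicate 3.

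maco-1, which encodes the neuronal membrane protein macoilin, shows that split. Its region at chrI:6607907-6608319 was on line 8 of replicate 1 and line 7 of replicate 2, and on line 306 of replicate 3. The region beside unc-70, the gene of beta spectrin in the membrane skeleton, was on lines 18, 21 and 338, and that beside ifo-1, an organiser of intestinal intermediate filaments, on lines 56, 16 and 331. The region beside nhr-48, a nuclear hormone receptor gene, was on lines 26, 15 and 204. In contrast, the region shared by lmn-1, the nuclear lamin gene, and tin-13, a mitochondrial import gene, was on lines 35, 129 and 32. The region beside lev-11, the tropomyosin gene of muscle, was on lines 23, 135 and 72. The remaining members of the first 15 lay beside clc-23, a claudin-like gene, ippk-1, an inositol phosphate kinase gene, oig-8, a gene of an immunoglobulin-domain protein, adm-2, an ADAM metalloprotease gene, and T28F4.1. Their lines ran from 29 to 183 in replicate 1, from 49 to 96 in replicate 2 and from 109 to 361 in replicate 3.

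**Figure D1:**
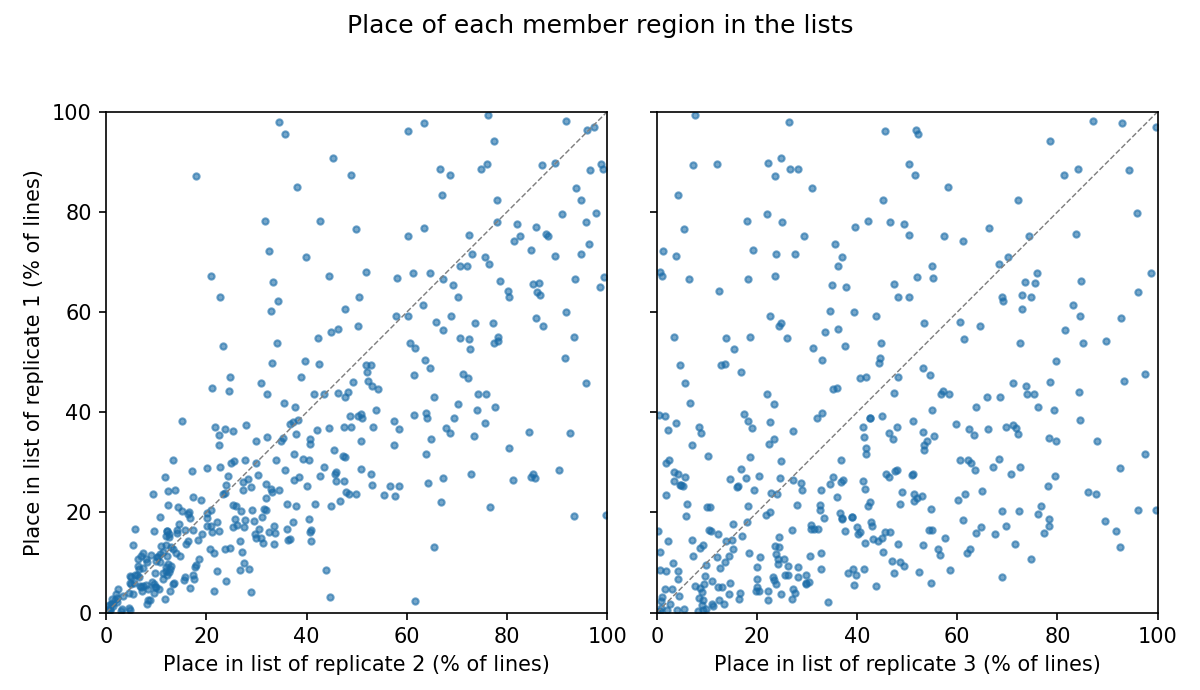
Place of each of the 424 member regions in the list of replicate 1 (vertical axis, % of its lines) against its place in the list of replicate 2 (left) and replicate 3 (right); each point is 1 region and the dashed line marks equal places. Points lie closer to the line in the left panel than in the right one, where many regions in the first 20% of replicate 1 are spread over the whole list of replicate 3.

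Across the 424 members the places in replicates 1 and 2 had a Spearman correlation of 0.81. With replicate 3 it was 0.34 for replicate 1 and 0.26 for replicate 2. These are descriptions across regions that share their libraries. Centres, too, lay closest between replicates 1 and 2: the median distance was 22 bp for replicates 1 and 2, and 32 and 31.5 bp for replicates 1 and 2 to replicate 3. The share of members with centres within 50 bp of each other was 81.1% for replicates 1 and 2, against 65.6% and 67.0% for the pairs with replicate 3. The first 10% of the lines held 79 members in replicate 1, 59 in replicate 2 and 68 in replicate 3, or 18.6%, 13.9% and 16% of members. For shared regions inside genes these shares were 22.3%, 14.8% and 9.32%. They were 14.2%, 15% and 21.1% within 500 bp, and 23%, 19.6% and 15.1% beyond 2000 bp. In the first 10% of all 3 lists were 19 members. There were 128 members in the first 10% of at least 1 list.

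The median place of members lay within 6 percentage points of that of each other class in every list. Their median place minus that of regions beyond 2000 bp was -2.3, -2.47 and -2.46 percentage points in replicates 1, 2 and 3, a mean of -2.41 ± 0.0981 (SD, n = 3). Only the median was thus slightly earlier in each list. The first 10% of lines held a smaller share of members than of regions beyond 2000 bp in replicates 1 and 2, and a larger one in replicate 3. The same regions are placed in each list, so the small SD is not independent agreement. The difference in medians rests on the set of lists: with shared regions taken from replicates 2 and 3 alone, without replicate 1, it was -5.16. The exact two-sided permutation test over the 3 replicates gave p = 0.25, the smallest p that 3 pairs allow, so the design cannot reach 0.05. Against regions inside genes the difference was -1.54 ± 2.8 percentage points (SD, n = 3, exact permutation p = 0.5). Against regions within 500 bp it was 0.666 ± 4.59 (SD, n = 3, exact permutation p = 0.75). In both of these the replicates differed in sign. All 3 comparisons of place had a Benjamini-Hochberg adjusted p of 0.75 (exact permutation tests).

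The share of windows found again in the other lists varied between replicates about as much as between classes of distance. Of all windows at 500 to 2000 bp, 834 in replicate 1, 691 in replicate 2 and 742 in replicate 3, a share of 50.6%, 61.2% and 57.1% overlapped windows of both other lists, a mean of 56.3% ± 5.35 (SD, n = 3). The mean was 51.3% ± 11.5 for windows inside genes, 53.2% ± 8.19 within 500 bp and 49.8% ± 6.71 beyond 2000 bp. The mean difference was 6.49 ± 3.33 percentage points from windows beyond 2000 bp, 5.07 ± 7.15 from windows inside genes and 3.06 ± 8.39 from windows within 500 bp (SD, n = 3). Presence in all lists is what chose the members, and the same shared regions are counted from each list, so these shares are a description with no test.

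Where windows at this distance were not shared by all 3 lists, replicates 1 and 2 held most of the pairs. Merging gave 1112 regions at 500 to 2000 bp, of which 424 (38.1%) held all 3 replicates, 181 replicates 1 and 2, 91 replicates 1 and 3, and 41 replicates 2 and 3. Another 140 came from replicate 1 alone, 48 from replicate 2 alone and 187 from replicate 3 alone. Over merged regions of all distances, 32.8% held all 3.

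Sequence at 500 to 2000 bp from genes measured 14.1 Mb, or 14% of the genome, and held 30.1 members per Mb. The density of shared regions was 10.2 per Mb inside genes, 31.4 within 500 bp and 29.3 beyond 2000 bp. All windows of the 3 lists gave a mean of 53.7 ± 5.15 per Mb at the members' distance (SD, n = 3), against 20.6 ± 4.17 inside genes, 59.8 ± 9.28 within 500 bp and 59.7 ± 7.51 beyond 2000 bp. Outside genes, then, the mean at the members' distance differed from those of the nearer and the farther class by less than the SD of either of these. Within each list, however, the density was lower than beyond 2000 bp. It was 59.3, 49.1 and 52.7 per Mb in replicates 1, 2 and 3, against 65.5, 51.2 and 62.4 beyond 2000 bp. Against windows within 500 bp, at 58.2, 51.4 and 69.7 per Mb, the lists differed in direction. Within the members' range there was no steady slope: from 500 to 2000 bp in steps of 250 bp, the density of members was 27.7, 32.1, 27.7, 37.2, 27.2 and 30.1 per Mb. The counts fell with distance, with 99 members in the first step and 45 in the last, as did the sequence at each distance. For shared regions the distance limits thus cut through a stretch of the profile with no steady slope.

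**Figure D2:**
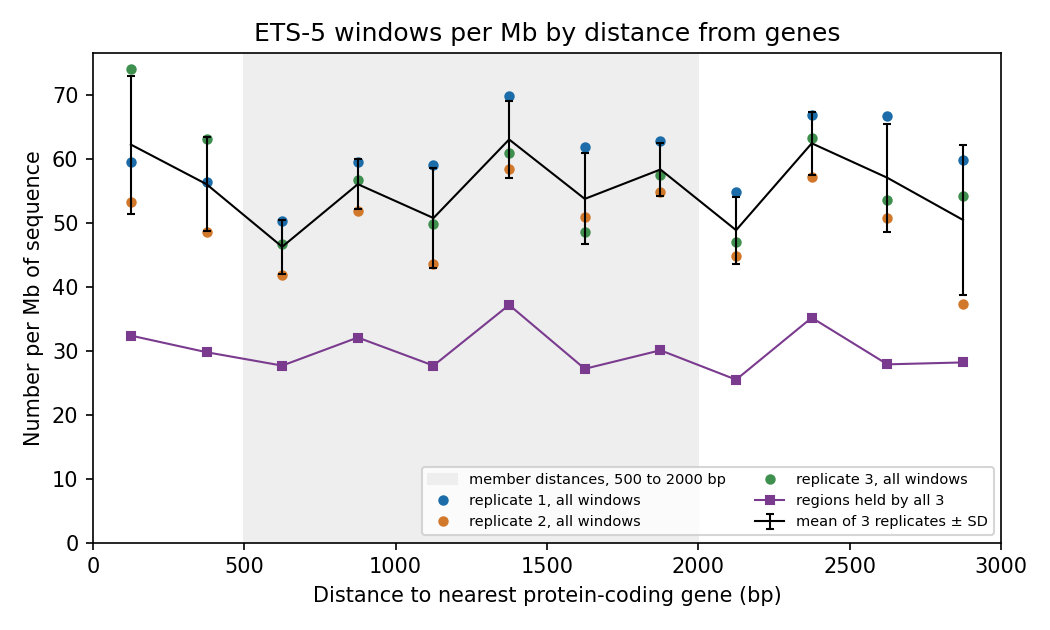
Windows per Mb of sequence against distance to the nearest protein-coding gene in steps of 250 bp: coloured points are the 3 replicates, the black line their mean ± SD, and purple squares the regions held by all 3; the members' distances are shaded. Purple squares in the shaded range lie between 27.2 and 37.2 per Mb, with no trend across the limits.

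At the lower limit, the members just inside were those beside rpl-35, a ribosomal protein gene, at 500.333 bp, and beside lin-15A at 501.667 bp. Just outside were regions beside K09E9.4 at 498.667 bp and C16H3.3 at 500 bp. At the upper limit, members beside tcc-1 and Y48D7A.1 lay at 1991.67 and 1992.0 bp, and regions beside pacs-1 and sli-1, a Cbl-family gene, fell outside at 2017.67 and 2020.0 bp. A distance depends on the windows and the gene table having the same coordinates, and the sources used here do not give the build of the windows. With the windows shifted by 100 bp, 393 of the 424 were still within 500 to 2000 bp in one direction and 399 in the other.

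Members were unevenly spread over the chromosomes. Chromosome I held 83 members, 19.6% of them, and only 11.6% of the sequence at this distance, which gave 50.8 members per Mb. Chromosome V held 76 members, 17.9%, with 23.1% of the sequence, which gave 23.4 per Mb. Density was 37.5 per Mb on chromosome III (58 members), 33.3 on X (101 members), 23.1 on IV (55 members) and 22.9 on II (51 members). The X chromosome held the most members, 23.8%, with 21.6% of the sequence.

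Chromosome I also had the highest density in each separate list, but the lists hold the members themselves. Of the windows at this distance, 422 of 834, 423 of 691 and 424 of 742 in replicates 1, 2 and 3 overlapped both other lists. The same regions are thus counted in each list, so a shared direction is not independent evidence. All windows at 500 to 2000 bp gave 86.9, 77.8 and 77.8 per Mb on chromosome I in replicates 1, 2 and 3, against 55.6, 45.3 and 49.4 per Mb on the other chromosomes together. Chromosome I thus stood above the rest in each list, by 30.7 ± 2.12 per Mb (SD, n = 3). Chromosome III was higher by 17 ± 4.55 per Mb and X by 4.88 ± 2.7, while chromosome V was lower, with a difference of -19.2 ± 4.81 (SD, n = 3 each). For all 6 chromosomes the 3 replicates shared a sign, and the exact permutation p was 0.25, the smallest allowed, also after Benjamini-Hochberg adjustment. Among shared regions of the other classes, chromosome I led only beyond 2000 bp, and by little. It held 33.1 per Mb there, against 33 on X and 32.8 on II. Within 500 bp it held 44.1, against 46.0 on X, and inside genes 9.53, against 14 on III. By windows, chromosome I was highest within 500 bp too, at 85.3 ± 17.1 per Mb, against 77.2 ± 20.1 on III (SD, n = 3). In the other classes III had more windows: 25 against 21.1 per Mb inside genes, and 74.2 against 71.3 beyond 2000 bp. Cut into 3 equal lengths, the autosomes held 34.4% of their members in the middle length, against 32.8% of the sequence at this distance. Single autosomes ran from 25.5% of members on IV to 39.5% on V. Of the windows at this distance the middle length held 37%, 37.8% and 28% in replicates 1, 2 and 3, so the lists differed in direction.

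**Figure D3:**
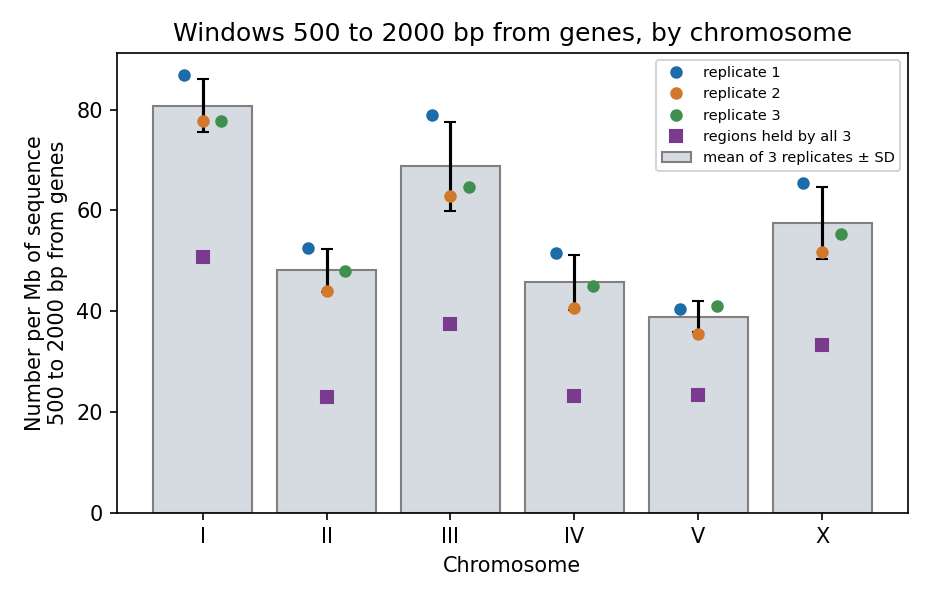
Windows at 500 to 2000 bp from genes per Mb of such sequence on each chromosome: grey bars and black lines are the mean ± SD of the 3 replicates, coloured points the replicates, and purple squares the members. Chromosome I is highest for windows (80.8 ± 5.3 per Mb) and for members (50.8 per Mb), and chromosome V is lowest for windows (38.9 ± 3.04 per Mb).

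Members stood in gaps between genes of every length at much the same density. A gene lay within 2000 bp on both sides of 114 members (26.9%), against 25.5% of all sequence at this distance, and on one side only of 310. Member density was 31.2 per Mb in gaps up to 2000 bp, 28.8 from 2000 to 4000 bp, 32.5 from 4000 to 6000 bp, 29.2 from 6000 to 10000 bp and 29.6 in longer gaps. The gaps around members had a median length of 4580 bp. In all, 404 gaps held a member, and 20 of them held 2.

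A gene was counted as beside a member where the region's centre lay at most 2000 bp outside either of its ends. By this count 561 of 19971 protein-coding genes (2.81%) were beside a member. Of the members, 294 had 1 gene beside them, 116 had 2 and 14 had 3. Counting every window at this distance, 4.77% ± 0.401 of genes were beside one (SD, n = 3). Windows of the members are among these in each replicate. For a list of genes, the shares by replicate are therefore not independent of the count beside members or of each other. Genes beside members were longer, with a median span of 3056 bp, against 2006 bp for all protein-coding genes. A further shared region lay inside 35 of the 561 (6.24%), against 2.46% of all other genes, and within 500 bp of 23 (4.1%), against 2.46%. Gene names of letters and a number, rather than a clone name, were held by 63.6% of the genes beside members and 56.4% of all genes.

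Of the gene lists, the pan-neuronal one, genes used by most or all neurons, had the largest share beside members among the 27 lists that were not drawn from the genes beside members. Members lay beside 10 of its 29 genes (34.5%), against 2.81% of all genes. Windows at this distance lay beside 44.8%, 37.9% and 34.5% of the list in replicates 1, 2 and 3, a mean of 39.1% ± 5.27 (SD, n = 3), against 4.77% ± 0.401 of all genes. These genes also have more sequence at this distance around them, 1500 bp a gene against 923.5 bp, and per Mb of that sequence the list had 230 pairs of a gene and a member, against 30.8 for all genes. Earlier results of these data had already shown this list near windows, so the count is not independent evidence.

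The pan-neuronal genes beside members include parts of the synaptic vesicle cycle, of axonal transport and of the axon's skeleton. snb-1, the gene of the vesicle protein synaptobrevin, had a region at chrV:6657777-6658186 on lines 182, 240 and 61 of replicates 1, 2 and 3. unc-64, the gene of its membrane partner syntaxin, had a region on lines 352, 379 and 966. The snb-1 region was thus earlier in replicate 3 than in the others, and the unc-64 region later. unc-44, the gene of the axonal scaffold ankyrin, had a region on lines 389, 289 and 1738. The others were unc-33, a gene of axon growth and microtubule organisation, unc-11, an adaptor of vesicle endocytosis, aex-3, an exchange factor for Rab3, unc-104, the kinesin that carries vesicle precursors, syd-2, liprin of the active zone, and egl-3, a convertase that cuts neuropeptide precursors. With maco-1 they make up the 10, and the lines of these 6 ran from 817 to 2931 in replicate 1, from 734 to 2501 in replicate 2 and from 866 to 2581 in replicate 3.

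Genes of axon and synapse development, a list added after the genes beside members had been seen, had 15 of 49 genes (30.6%) beside a region, 3 of which (unc-44, unc-33 and syd-2) are in the pan-neuronal list as well. The region beside unc-51, a kinase gene of axon growth and autophagy, was on lines 103, 33 and 606. The list held several genes of one pathway of axon growth and repair: rpm-1, a ubiquitin ligase gene that restrains it, dlk-1 and mkk-4, the genes of its upstream kinases, and cebp-1, the gene of its transcription factor. The region beside rpm-1 was on lines 500, 380 and 904, that beside dlk-1 on lines 334, 370 and 1527, and that beside glo-4, the gene of a partner of RPM-1, on lines 93, 242 and 826. These 3 were earlier in replicates 1 and 2 than in replicate 3. So was the mkk-4 region, on lines 1328, 1028 and 2897, while the cebp-1 region, on lines 956, 843 and 594, was earlier in replicate 3. Other genes of the list beside members were sdn-1 (syndecan), kal-1 and max-1 (genes of axon branching and guidance), smp-2 (a semaphorin) and sad-1 (a kinase of neuronal polarity). As the list was chosen for these genes, its share supports nothing beyond the count.

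G protein signalling genes, a list added in the same way, had 12 of 56 genes (21.4%) beside a member, against 2.81% of all genes. They range over the whole cascade: gpa-7 and gpa-4 encode alpha subunits, gpb-1 the beta subunit and gpc-2 a gamma subunit. arr-1 (arrestin) and grk-1 (receptor kinase) act on receptors. dgk-1 and dgk-4 encode diacylglycerol kinases, rgs-6 and rgs-8.2 encode RGS proteins, rsbp-1 encodes an RGS-binding protein, and kin-1 the catalytic subunit of protein kinase A. The region beside gpb-1 was on lines 362, 524 and 363 of replicates 1, 2 and 3. That beside arr-1 was on lines 426, 201 and 264, and that beside gpa-7 on lines 148, 133 and 618. The region beside dgk-1 was on lines 430, 357 and 532. These 4 stood within the first 20% of the lines of every list, but they were named as the earliest of the 12 by mean place. Their early places therefore do not describe the list. By mean place the others ran from the dgk-4 region, on lines 82, 62 and 1265, to the kin-1 region, on lines 2880, 2559 and 3093. Windows at this distance lay beside 26.8%, 23.2% and 17.9% of the list in replicates 1, 2 and 3, against 4.77% ± 0.401 of all genes (SD, n = 3). As the list was drawn from genes seen beside members, these shares support nothing.

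Ligand-gated ion channel genes, another of the 27 lists, had 9 of 111 genes (8.11%) beside a member, against 2.81% of all genes. Any window at this distance lay beside 9.01% ± 0.901 of the list, against 4.77% ± 0.401 of all genes (SD, n = 3). Windows of the members are counted in each replicate, so this share is not independent of the count beside members. Besides lgc-26 the 9 genes were acr-10, acr-18, acr-20, acr-24, acr-25 and unc-63, all subunits of nicotinic acetylcholine receptors, acc-3, an acetylcholine-gated chloride channel, and glr-5, a glutamate receptor. The 6 nicotinic genes were 20.7% of the 29 of their kind. The nicotinic list was added after the genes beside members had been seen, so its share supports nothing beyond the count. The region beside acr-18 was on lines 247, 451 and 865, and that beside acr-10 on lines 1071, 1337 and 124. The acr-10 region was thus far earlier in replicate 3, at 3.35% of its lines, than in replicates 1 and 2.

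Receptors of transmitters and peptides that signal through G proteins, also among the 27, had 5 of 109 genes (4.59%) beside a member. Their sequence at this distance was long, at 1756 bp a gene against 923.5 bp for all genes. Per Mb of it there were 26.1 pairs of a gene and a member, below the 30.8 for all genes. npr-13 and npr-15 encode neuropeptide receptors, dmsr-1 and dmsr-2 receptors of the myosuppressin family, and gar-2 a muscarinic acetylcholine receptor. The region beside npr-13 was on lines 613, 611 and 1496, and that beside gar-2 on lines 455, 623 and 2287. Any window at this distance lay beside 12.8%, 10.1% and 5.5% of the list in replicates 1, 2 and 3, so replicate 3 held the fewest of these genes. For all genes the share was 4.77% ± 0.401 (SD, n = 3). Of 147 neuropeptide genes, 3 were beside a member (2.04%), close to the 2.81% of all genes. They were ins-13 and ins-39, insulin-like peptide genes, and nlp-53. The region of ins-39 was on line 39 of replicate 3, against lines 2560 and 1297 of replicates 1 and 2. Of 72 potassium channel genes only slo-1, the large-conductance calcium-activated channel, was beside a member, on lines 191, 200 and 740.

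Of 21 genes tied to the BAG neurons, 2 were beside a member (9.52%, against 2.81% of all genes). Any window at this distance lay beside 9.52% of the list in each replicate, against 4.77% ± 0.401 of all genes (SD, n = 3). Windows of the members are counted in each replicate, so these equal shares are not independent evidence. The BAG list had 1320 bp of sequence at this distance a gene, against 923.5 bp for all genes. Per Mb of it there were 72.2 pairs of a gene and a member, against 30.8. The 2 genes were tol-1, a Toll receptor gene needed for BAG neuron function, and ceh-37, an Otx-type homeobox gene. The tol-1 region was on lines 809, 1310 and 2838 and the ceh-37 region on lines 1564, 2266 and 2357, so both stood later than the first 20% of the lines in each list. No member was beside any of 33 guanylyl cyclase genes, the family that holds the receptors of oxygen and carbon dioxide, any of 10 serotonin genes or any of 9 genes of the ETS family itself. Any window at this distance lay beside 3.03%, 3.03% and 0% of the guanylyl cyclase genes and 20%, 10% and 0% of the serotonin genes in replicates 1, 2 and 3. With 2.81% of all genes beside a member, lists this short would hold few or none at the background share. Of 100 homeobox genes, 3 were beside a member (3.0%): ceh-20, a Pbx-type cofactor of Hox proteins, ceh-37 and ceh-89. The ceh-89 region, which also lies beside akt-2, a kinase gene of insulin signalling, was on lines 144, 158 and 920. ceh-20 was also the only gene of 26 in the Hox and Wnt list beside a member, and of 41 genes of basic helix-loop-helix factors there was none.

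The heterochronic genes, which time larval development, were listed together with the microRNA pathway after they had been seen beside members. Of these 20 genes, 6 were beside a member (30%), against 2.81% of all genes, a share that their choice in part fixed. They were lin-28, an RNA-binding protein gene of early larval fates, lin-41 and nhl-2, of the TRIM-NHL family, ain-1, a GW182-type partner of Argonaute, puf-9, a Pumilio-type repressor, and lin-66. The puf-9 region was on lines 553, 533 and 558 of replicates 1, 2 and 3, at 14.5%, 18.3% and 15.1% of the lines, so its place hardly differed between lists. The lin-41 region was on lines 454, 211 and 679, and the ain-1 region on lines 489, 716 and 317. The lin-28 region stood later, on lines 1283, 1185 and 832. Any window at this distance lay beside 33.3% ± 2.89 of the list, against 4.77% ± 0.401 of all genes (SD, n = 3). Sequence at this distance was also longer around these genes, at 1850 bp a gene against 923.5 bp for all genes.

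Ras and growth factor receptor genes, also listed afterwards, had 8 of 36 (22.2%) beside a member, against 2.81% of all genes, a share fixed in part by that choice. let-23, the epidermal growth factor receptor gene, had a region on lines 149, 279 and 1022. let-60, the Ras gene itself, had one far down every list, on lines 2402, 2345 and 2763. The others were egl-15, the fibroblast growth factor receptor, gap-3, a Ras GTPase-activating protein, let-92, pptr-1 and sur-6, subunits of protein phosphatase 2A, and eor-2, a nuclear factor of the pathway. Places within this group ran over most of each list, from 149 to 3142 in replicate 1.

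Muscle genes had 4 of 37 beside a member (10.8%), against 2.81% of all genes, and 11.7% ± 1.56 with any window at this distance (SD, n = 3). The latter share counts the windows of the members again. Muscle genes had 1632 bp of sequence at this distance a gene, against 923.5 bp for all genes. Per Mb of it there were 66.3 pairs of a gene and a member, against 30.8. Besides lev-11 the 4 genes were unc-112 (kindlin) and unc-95, both of the attachments of muscle filaments, and lev-10, which clusters acetylcholine receptors at the muscle. The unc-112 region was on lines 1030, 345 and 1301. The regions of unc-95 and lev-10 are neighbours, at chrI:14386168-14386702 and chrI:14388858-14389290. They stood at opposite ends: the lev-10 region was on lines 606, 412 and 2859, and the unc-95 region on lines 2727, 2763 and 1021. So of these neighbours, lev-10 was earlier in replicates 1 and 2 and unc-95 in replicate 3. Genes with names in unc, given for uncoordinated movement, had 16 of 94 beside a member (17%, against 2.81% of all genes), a list added afterwards that holds 5 of the pan-neuronal and 2 of the muscle genes already named. Among the rest unc-57, endophilin of vesicle recycling, had a region on lines 811, 754 and 678.

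Large families of tandem genes had smaller shares than all genes. Of 1310 chemoreceptor genes 9 were beside a member (0.687%, against 2.81%). Any window at this distance lay beside 1.37% ± 0.425 of them (SD, n = 3), against 4.77% ± 0.401 of all genes. Their sequence at this distance was not short, at 964.6 bp a gene against 923.5 bp, and held 7.12 pairs of a gene and a member per Mb, against 30.8. After srg-64 the earliest were sre-47 on lines 1182, 1387 and 693, str-187 on lines 1031, 1123 and 1713, and srh-120 on lines 2981, 1244 and 664. These 3 stood far later than the srg-64 region in every list. F-box and MATH genes had 4 of 394 (1.02%), namely fbxa-28, fbxa-75, fbxa-208 and fbxb-58. C-type lectin genes had 4 of 239 (1.67%), namely clec-9, clec-80, clec-93 and clec-182. The clec-93 region was on lines 188, 487 and 322, and that of clec-182 on lines 163, 373 and 734. How the authors placed reads among near-identical copies in these families is unknown here, and its part in these counts was not tested.

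Nuclear hormone receptor genes had 9 of 274 beside a member (3.28%), near the 2.81% of all genes. One region served both nhr-115 and nhr-225, on lines 379, 803 and 116, and the nhr-88 region was on lines 483, 603 and 564. Lipid metabolism genes had 3 of 56 (5.36%), namely acdh-2, an acyl-CoA dehydrogenase gene, acs-4, an acyl-CoA synthetase gene, and lpin-1, lipin. The acs-4 region was on lines 286, 176 and 964. Cilium genes had 2 of 39 (5.13%): klp-11, a subunit of the kinesin that runs along cilia, on lines 302, 283 and 1414, and nphp-4, of the ciliary transition zone, on lines 345, 520 and 738. Collagen genes had 3 of 178 (1.69%), col-83, col-157 and col-176, and ribosomal protein genes 2 of 77 (2.6%), rpl-13 and rpl-35. Per Mb of sequence at this distance the ribosomal list had 74.6 pairs of a gene and a member, against 30.8 for all genes. That value rests on 2 genes, and the rpl-35 region lay at 500.333 bp, just past the lower limit. Windows at this distance lay beside 1.3%, 3.9% and 0% of the ribosomal list in replicates 1, 2 and 3. For all genes the share was 4.77% ± 0.401 (SD, n = 3). None was beside a member among 42 germline, 21 intestine, 23 epidermis, 83 histone, 25 heat shock and 33 proteasome genes. Such sequence was short for proteasome (203.5 bp a gene), germline (482.5 bp), heat shock (501.9 bp) and histone genes (704.6 bp), against 923.5 bp for all genes. It was longer for intestine (1317 bp) and epidermis genes (1425 bp). Lists this short would hold few or none at the background share.

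**Figure D4:**
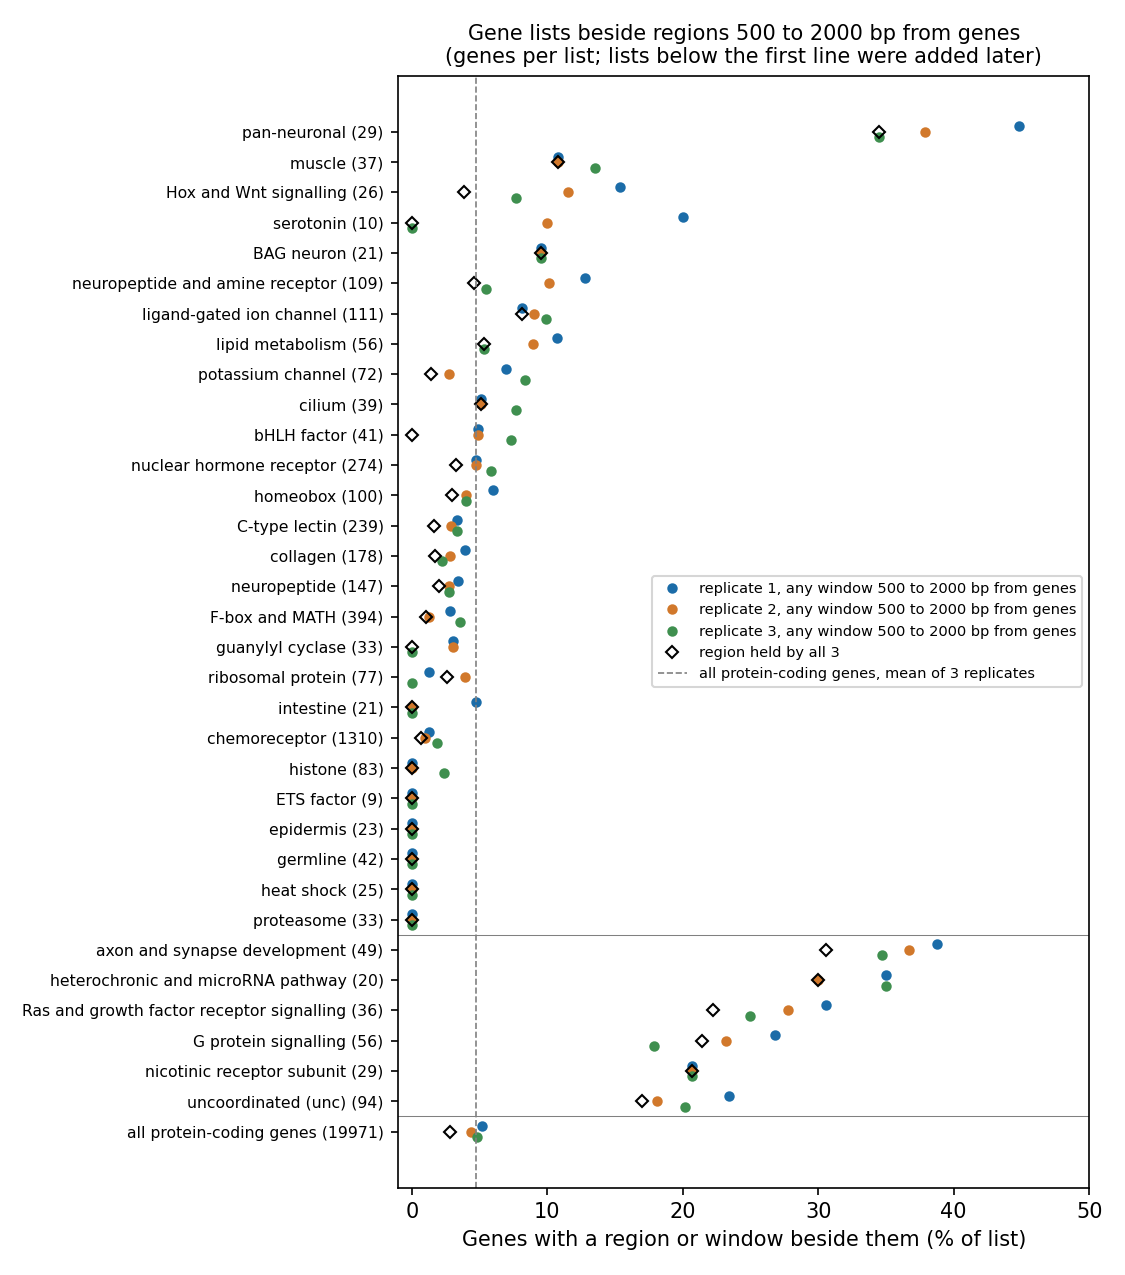
Share of each gene list (horizontal axis, % of its genes; number of genes in brackets) with a region held by all 3 lists beside it (open diamonds) or any window at 500 to 2000 bp of replicates 1 to 3 (coloured points). The dashed line is the mean for all protein-coding genes; pan-neuronal genes stand at 34.5% for members, and the 6 lists under the first rule were chosen after their genes had been seen.

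The rule that chose the members looked at protein-coding genes only, so the non-coding genes at them are a separate measure. Genes that the RefSeq table types as ncRNA (median length 140 bp) lay within 200 bp of 83 members (19.6%), against 5.16% of all sequence at this distance, a ratio of 3.8. Over shared regions of every distance the share was 16.6%, with 12.8% inside genes, 20.1% within 500 bp and 16.2% beyond 2000 bp. The share at members was thus close to that of shared regions within 500 bp of genes. In the separate lists 17.4%, 17.7% and 15.6% of the windows at 500 to 2000 bp lay within 200 bp of an ncRNA gene, a mean of 16.9% ± 1.1 (SD, n = 3). The closer the limit, the higher the ratio: 51 members (12%) had their centre inside such a gene, against 1.66% of the sequence, a ratio of 7.25. At 500 bp it was 101 members (23.8%), against 9.82%.

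Of the first 15 members by mean place, 4 lay within 200 bp of an ncRNA gene, against 19.6% of all members. A count this small cannot be told apart from that share. The fath-1 region lay on linc-171, the unc-70 region on T19F4.6 and the ifo-1 region on F42C5.16, and the T28F4.1 region lay 63 bp from T28F4.7. These 4 are among the first 15 members by mean place.

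Other types of non-coding gene were rare at members. Pseudogenes lay within 200 bp of 3 members (0.708%), against 13% of the sequence at this distance, and of 0.839%, 0.289% and 2.16% of the windows in replicates 1, 2 and 3. piRNA genes lay at 3 members (0.708%), against 4.16% of the sequence, and at 0.959%, 0.724% and 0.404% of the windows in replicates 1, 2 and 3. Both types were thus scarcer at members than in the sequence around them, also in the separate lists. Their shares were low in the other classes of shared region too. Inside genes, within 500 bp and beyond 2000 bp, pseudogenes lay at 0.316%, 0.535% and 1.68% of the regions. For piRNA genes these shares were 0.316%, 0.535% and 0.28%. A single member lay at a tRNA gene, C06E4.t1, on lines 282, 507 and 1098; among all windows at this distance tRNA genes were more frequent in replicate 3 (13 windows, 1.75%) than in replicate 1 (5 windows, 0.6%) or replicate 2 (2 windows, 0.289%). One member lay at a microRNA gene, mir-8209, at chrI:7954897-7955379, on lines 303, 331 and 1747. One lay on sls-2.2, a gene of the spliced leader RNA SL2 that is joined to downstream messages of operons, in the region beside ins-13 and acdh-2. That region was on line 22 of replicate 3, and on lines 462 and 329 of replicates 1 and 2. The 2 small nucleolar RNA genes were Y17G7B.25, in the ippk-1 region, and W06H8.17, whose region was on lines 1594, 1031 and 247.

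**Figure D5:**
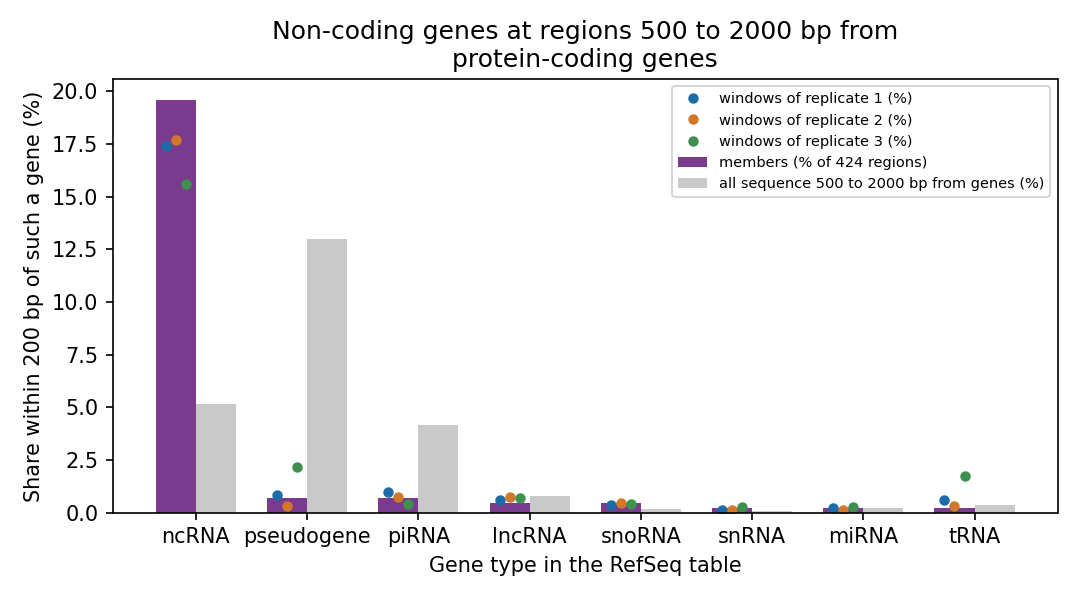
Share (vertical axis, %) within 200 bp of a non-coding gene of each RefSeq type, for the 424 members (purple bars), windows at 500 to 2000 bp of each replicate (coloured points) and all sequence at that distance (grey bars). Genes typed ncRNA lie at 19.6% of members, against 5.16% of the sequence, while pseudogenes lie at 0.708%, against 13%.

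Few genes had more than 1 member. There were 7 such genes: par-6, a cell polarity gene, lin-8, like lin-15A a class A synthetic multivulva gene, lido-13, gldi-3, H10E21.5, Y54G2A.26 and Y97E10C.1. The regions beside lin-8 and lido-13 are the same pair, at chrII:3054694-3055137 on lines 408, 543 and 934 and at chrII:3055586-3056012 on lines 233, 268 and 1121. Those of par-6 were on lines 1332, 933 and 1528 and on lines 878, 505 and 1332. In both pairs the same region was the earlier one in replicates 1 and 2. gldi-3 and Y54G2A.26 had a region on both sides, and the others had both on the same side.

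Members were mostly alone. Within 5000 bp of another member lay 36 of the 424, in 18 pairs and no larger group, and 116 lay within 5000 bp of a shared region of any class. The pairs joined neighbours of different kinds, such as igcm-1 and F39H12.3, sad-1 and H06A10.1, and fbxa-28 and fbxa-75; these were chosen from the 18 after their values were seen.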

How the data were processed

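For each of the 3 ETS-5 precipitates the authors deposited window positions (chromosome, start, end) without header or score. Per the submitters' processing notes the tools were Bowtie2 and MACS2; versions, settings, build, control and the meaning of the line order were not given in the sources used here. All 3 columns of each list were used. Starts were taken as 0-based and are printed 1-based; coordinates of the gene table are not printed. Windows overlapping by at least 1 bp were merged (5455 regions, the same 5455 with bedtools 2.31.1). On simulated lists 200 of 200 planted regions were recovered, which checks the merging only. Densities divide by sequence at the same distance from 19971 protein-coding genes. Differences in place or chromosome within a list used the two-sided exact permutation test of signs over 3 replicates, with Benjamini-Hochberg adjustment in each family; regions are not replicates, so lists of genes carry no test. The planned test of windows found again is not given, since the members were chosen on that value. The members and the 27 lists were chosen with earlier results of these data known, and 6 further lists after the genes beside members were seen.

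Named genes are those beside the 15 members earliest by mean place, of each list all genes beside a member where at most 6 and otherwise the 4 earliest, genes with 2 members, those at the distance limits, and microRNA, tRNA, snRNA and snoRNA genes. Further genes of the pan-neuronal, ion channel, nicotinic and added lists, non-coding genes of the first 15 members and close pairs were named after their values were seen. Alternatives were each replicate left out, an overlap of 100 bp, 2 of 3 replicates, the first 50% of lines, other centres, genes and distances, and shifts of 100 bp. Python 3.11.15, numpy 2.4.6, pandas 2.3.3, scipy 1.17.1 and matplotlib 3.10.9 were used.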

Additional observations from a re-analysis of the deposited data

How the results depend on the processing

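A value with a test was held to its direction and side of the threshold, a count to 1.5 times and other values to the spread between replicates; by these rules 28 moved and 125 did not. No paired analysis was possible because window lists of only 1 of the 4 groups were used, so replicate numbers pair no groups. With regions of at least 2 of 3 replicates there were 737 members, 929 genes beside them, 16 chemoreceptor genes, 18.5% of members on chromosome I, 16.7% on V and 21.7% on X, and 24.7% with a gene on both sides. With the first 50% of lines there were 184 members and 245 genes, 18.5% on chromosome I, and 5 pan-neuronal, 3 ligand-gated channel, 4 nuclear hormone receptor, 3 chemoreceptor, 9 axon and synapse and 5 G protein genes. Distances to genes of all types made members 20% of shared regions, and distances from the region edge 20.1%. Shifts of 100 bp to the left gave 18.4% on chromosome I and 25.5% on X, and to the right 25.6% on X. With the nearest gene alone, 5 ligand-gated channel and 5 chemoreceptor genes counted as beside members. An ncRNA gene lay at 0 bp from 51 members, in place of 83 within 200 bp. Leaving out a replicate gave 18.7% to 19.1% of members on chromosome I, 22.4% to 23.5% on X, 22 to 32 bp between replicate centres, 50 to 76 members within 5000 bp of another and 464 to 600 members, and moved the place of members against regions beyond 2000 bp to between -5.16 and -2.91 percentage points. Without replicate 3 the values were 76 members within 5000 bp of another, 22 bp between centres and 18.7% on chromosome I. Some settings move a count by their own rule. Regions of 2 of 3 replicates include all the members, and leaving out a replicate asks for 2 lists in place of 3. The first 50% of lines leaves fewer windows to share, and the nearest gene alone or 0 bp can only lower a count. The cause of the other changes was not tested. Motif searches were not run, since no genome sequence was used. The depth of the windows is unknown, so a region missing from a list may be weak or absent.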

Other observations

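Some members stood early in one library and late in others. In the first 10% of replicate 3 but past 50% of the lines of replicates 1 and 2 were 7 members. The region beside ZK899.6 was on lines 2592, 1510 and 23 of replicates 1, 2 and 3, that beside nssp-17 on lines 2095, 2280 and 128, and that beside mec-6, a gene needed for touch-receptor channels, on lines 3178, 1957 and 154. The others were beside npp-18, a nuclear pore gene, Y95D11A.1, Y53G8AR.1 and Y81B9A.2. The opposite held for 2 members, in the first 10% of replicates 1 and 2 but past 50% of the lines of replicate 3. They were beside pdl-1, a gene of a prenyl-binding protein, on lines 221, 138 and 2022, and beside K02D10.8 on lines 269, 143 and 2549. These genes were chosen for their values, and the meaning of the line order is unknown.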
